A study of Homo sapiens with 15 samples.

Results

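The genes described here are 9 regulators and readouts of oestrogen signalling and luminal identity in the mammary gland: the receptors ESR1, ESR2, GPER1 and PGR, the oestrogen-responsive genes GREB1, CA12 and XBP1, and the luminal transcription factors GATA3 and FOXA1. They were chosen as a named list, and all 9 were found among the 60721 genes of the count table. RNA was measured by poly(A) sequencing in 15 libraries of MCF-10A, a non-tumorigenic human mammary epithelial line. The groups, with 3 biological replicates each, were parental cells, cells with an empty vector, and NF1-edited cells made with guide RNA 1, with guide RNA 2, or with guides 1 and 2. The labels do not say whether an edited line is 1 clone or a pool, nor how the guides were delivered. Every group grew, with no further treatment, in the same DMEM/F12 without phenol red, with 10% horse serum, 20 ng/mL EGF, 0.5 ug/mL hydrocortisone, 100 ng/mL cholera toxin and 10 ug/mL insulin.

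ESR1 and ESR2 encode the nuclear oestrogen receptors alpha and beta, which bind oestradiol and then act on DNA through oestrogen response elements and with the help of coregulator proteins. GPER1 is a membrane receptor that responds to oestrogen, and PGR, the progesterone receptor, is a classical oestrogen target. In the mammary gland ESR1 and PGR belong mostly to hormone-sensing luminal cells, where FOXA1 opens chromatin for ESR1 and GATA3 keeps the luminal programme. NF1, besides restraining RAS, has been reported as a co-repressor of the oestrogen receptor. MCF-10A is generally regarded as low in oestrogen receptor, so detection is given before any comparison.

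Library totals lay between 46129559 and 78976917 counts, so that 3 counts, taken here as the smallest detectable level, equal 0.0380 to 0.0650 CPM, counts scaled to the same library total in each. NF1 RNA was 26.0 to 51.3 CPM in the 9 edited libraries and 115 to 159 CPM in the 6 unedited ones, without overlap. Some libraries stood apart from their own group in epithelial markers. The basal keratin KRT14 was 1147 CPM in guide 2 replicate 2 and 18.9 and 17.4 CPM in guide 2 replicates 1 and 3. It was 37.8 CPM in parental replicate 2 and 545 and 265 CPM in parental replicates 1 and 3. Counts of called genes are also given without guide 2 replicate 2 and, for the lists used for context, without parental replicate 2.

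Of the nuclear oestrogen receptors, ESR1 was detected in all 15 libraries, but at 13 to 50 counts per library and 404 counts in all. ESR2 had 0 to 12 counts per library and 63 in all, exceeded 3 counts in 8 of 15 libraries and exceeded 10 counts in 1. PGR had a single count in the whole series, in guide 1 replicate 3, and 0 in the other 14 libraries. By depth, the upper ends of the 95% Poisson intervals for a count of 0 were 0.0467 to 0.0800 CPM. The membrane receptor GPER1 had 195 to 468 counts per library. GREB1 had 45 to 483, FOXA1 89 to 419, GATA3 850 to 2789, CA12 2847 to 10445 and XBP1 4126 to 6449 counts per library. Without molecular identifiers several reads can stem from 1 molecule, so these limits hold for counting error alone. ESR2 and PGR did not pass the filter on low counts, so 7 of the 9 genes were tested between groups.

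Per kilobase of merged exon, the median level over the libraries was 30.2 CPM for XBP1, 9.38 for CA12, 6.49 for GATA3, 1.63 for GPER1, 0.761 for FOXA1, 0.248 for GREB1, 0.0329 for ESR1 and 0.0075 for ESR2. Of the 18784 genes above the floor in the median library, XBP1 lay at the 92.7th percentile of this level per kilobase, GPER1 at the 47.2nd and ESR1 at the 4.17th. Among related receptors the glucocorticoid receptor NR3C1, whose ligand hydrocortisone is in the medium, had 19.4 CPM per kilobase. ESR1, ESR2 and PGR were the lowest of the 9 genes per length, while all 18 oestrogen receptor coregulators on a list used for context were above the floor in every library.

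**Figure D1:**
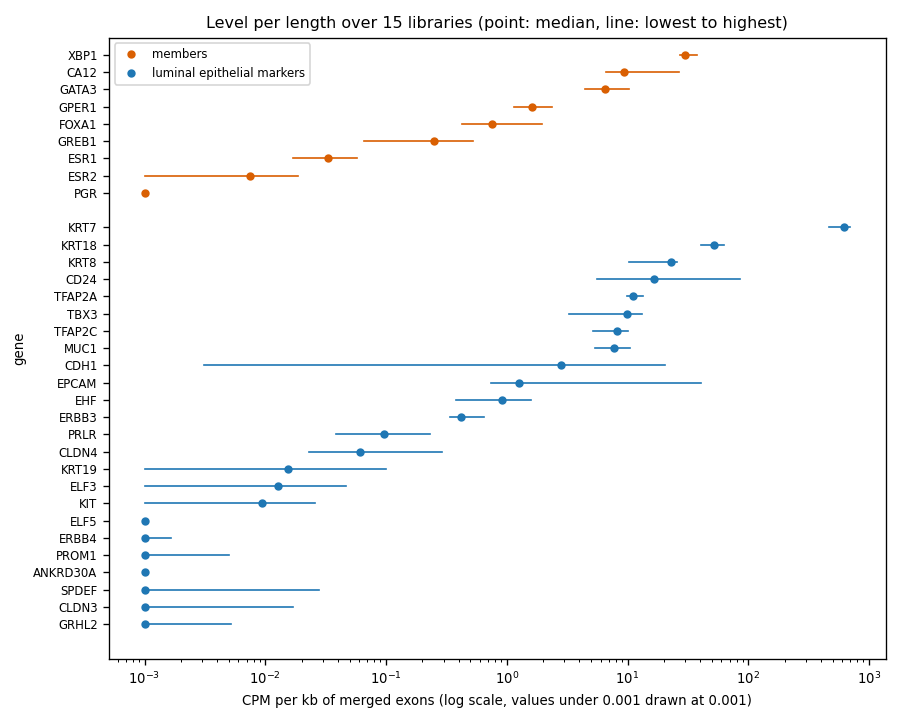
Median CPM per kilobase of merged exons over the 15 libraries (points, log axis) with the lowest to highest library (lines), for the 9 genes and the 24 luminal markers. ESR1, ESR2 and PGR lie at 0.0329 CPM per kilobase or less, whereas XBP1 reaches 30.2 and CA12 9.38.

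ESR1 (ENSG00000091831) spans chr6:151656691-152129619 on the plus strand of GRCh38. Its levels for replicates 1, 2 and 3 were 0.578, 0.553 and 0.709 CPM in the empty vector and 0.474, 0.235 and 0.281 CPM in parental cells. They were 0.364, 0.456 and 0.791 CPM with guide 1, 0.361, 0.308 and 0.419 CPM with guide 2, and 0.520, 0.517 and 0.429 CPM with guides 1 and 2. The empty-vector libraries lay above all libraries of guide 2, guides 1 and 2 and parental cells, and inside the spread of guide 1. In the edgeR quasi-likelihood fit the log2 fold change of the mean of the 3 edited lines was -0.44 against the empty vector (SE 0.256, adjusted p = 0.370) and 0.48 against parental cells (adjusted p = 0.493). Neither passed the threshold of 0.05, and the sign of the estimate differed between the controls. The 95% interval against the empty vector ran from -0.99 to 0.12, and a level lower by as much as 0.99 is not excluded by it.

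ESR2 (ENSG00000140009) spans chr14:64084232-64338112 on the minus strand. Its 3 libraries gave 0.0957, 0.114 and 0.111 CPM with guide 1 and 0.0542, 0.0181 and 0.173 CPM with guide 2. The other groups gave 0.0434, 0.0357 and 0.0894 CPM with guides 1 and 2, 0.070, 0.0922 and 0.0187 CPM in the empty vector, and 0.0351, 0.0783 and 0 CPM in parental cells. The guide 1 libraries, at 5 to 9 counts each, lay above all empty-vector libraries, at 1 to 5 counts each. With so few counts no order of the groups can be read, and 523 bases of its exons overlap those of another annotated gene, AL161756.1.

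GPER1 (ENSG00000164850) spans chr7:1082208-1093815 on the plus strand and was the one oestrogen receptor with at least 195 counts in each library. It had 5.27, 5.14 and 7.41 CPM with guide 1, 5.64, 5.99 and 5.58 with guides 1 and 2, and 5.68, 6.53 and 4.94 in parental cells. Levels were 4.80, 4.61 and 3.64 CPM in the empty vector and 3.96, 4.62 and 3.82 CPM with guide 2. Guide 1, guides 1 and 2 and parental cells did not overlap with the empty vector, whereas guide 2 did. Set against the empty vector, its log2 fold change was 0.44 with guide 1 (SE 0.167, adjusted p = 0.144), 0.38 with guides 1 and 2 (adjusted p = 0.331), -0.09 with guide 2 (adjusted p = 0.835) and 0.37 in parental cells (adjusted p = 0.244), none of which passed. PGR (ENSG00000082175, chr11:101029624-101130524, minus strand) had no level to compare.

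**Figure D2:**
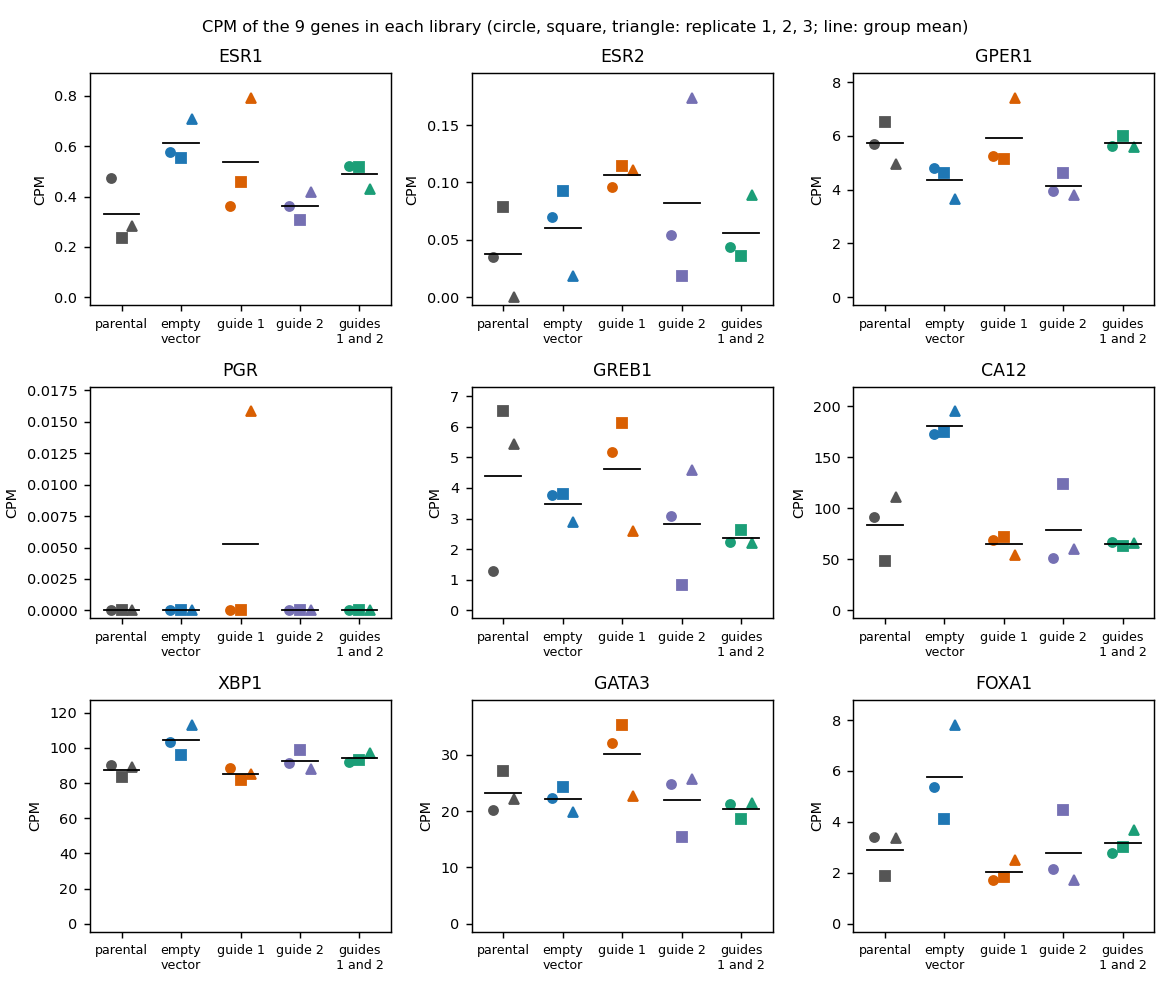
CPM of each of the 9 genes in each library, by group (circle, square and triangle for replicates 1, 2 and 3, with a line at the group mean). For CA12 all 3 empty-vector libraries, at 173 to 195 CPM, lie above the other 12, whose highest value is 124 CPM, while PGR is at 0 in 14 libraries.

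Among the oestrogen-responsive genes, CA12 was lower in every edited line than in the empty vector. CA12 (ENSG00000074410, chr15:63321378-63382161, minus strand) encodes carbonic anhydrase XII, a cell-surface enzyme that is abundant in oestrogen receptor-positive tumours. The empty-vector libraries had 173, 175 and 195 CPM. Levels were 68.6, 71.5 and 53.8 CPM with guide 1, 51.4, 124 and 59.9 CPM with guide 2, and 66.9, 63.0 and 65.6 CPM with guides 1 and 2. Parental cells had 91.6, 48.5 and 111 CPM. In bulk RNA a smaller number of cells that express a gene and less RNA per cell cannot be told apart. No other library reached the empty vector, and parental replicate 2 was the lowest library of all, while parental replicates 1 and 3 lay above every edited library but guide 2 replicate 2.

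In edgeR, CA12 fell by 1.50 (log2 fold change) with guide 1 (SE 0.312, adjusted p = 0.0173), by 1.23 with guide 2 (adjusted p = 0.0457) and by 1.50 with guides 1 and 2 (adjusted p = 0.0432). The mean of the 3 lines was 2.65-fold lower than the empty vector (log2 fold change -1.41, 95% interval -1.91 to -0.90, adjusted p = 0.00374). Parental cells, with unedited NF1, had a log2 fold change of -1.14 against the empty vector (adjusted p = 0.0550). Against parental cells the mean of the lines was -0.26 (95% interval -0.79 to 0.27, adjusted p = 0.687). These comparisons share the 3 empty-vector libraries, whose CA12 was high in each. The call for the mean of the lines held without any 1 library, at adjusted p up to 0.0347 without empty-vector replicate 3, and the guide 2 estimate was -1.73 (adjusted p = 0.001) without guide 2 replicate 2. The call with guide 1 held with the replicate number as a block (adjusted p = 0.0424) and was lost without empty-vector replicate 3 (adjusted p = 0.0749) or guide 1 replicate 1, 2 or 3 (0.0658, 0.0628 and 0.0521). The calls with guide 2 and with both guides did not hold with this block (adjusted p = 0.0894 and 0.105), nor without most single libraries. With guide 2 the call held without guide 1 replicate 3 (0.0447), guide 2 replicate 2, parental replicate 2 (0.0239) or parental replicate 3 (0.0488), and was lost without each of the other 11 (0.0592 to 0.152). With both guides it held without guide 1 replicate 3 (0.0284), guide 2 replicate 1, 2 or 3 (0.0352, 0.0026 and 0.0451) or parental replicate 2 (0.0232), and was lost without each of the other 10 (0.0505 to 0.181).

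GREB1 (ENSG00000196208, chr2:11482341-11642788, plus strand), an oestrogen receptor cofactor and an early oestrogen target, varied widely within groups. It had 5.19, 6.12 and 2.58 CPM with guide 1, 3.07, 0.816 and 4.58 CPM with guide 2, and 2.23, 2.64 and 2.20 CPM with guides 1 and 2. The empty vector had 3.76, 3.82 and 2.89 CPM and parental cells 1.28, 6.50 and 5.43 CPM. The lowest values were in guide 2 replicate 2 and parental replicate 1, the 2 libraries with the highest KRT14. Its log2 fold change of the mean of the lines was -0.16 against the empty vector, with a 95% interval from -1.18 to 0.85 (adjusted p = 0.890), and -0.47 against parental cells (adjusted p = 0.701).

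XBP1 (ENSG00000100219, chr22:28794555-28800597, minus strand) is an oestrogen-responsive gene whose protein is a transcription factor of the unfolded protein response, the response to misfolded protein in the endoplasmic reticulum. The bases just upstream of its annotated start are shown because they carry the element through which genes of that response are known to be induced. They come from RefSeq (GRCh38.p14), chr22:28800598-28800819, read 5′ to 3′ on the minus strand, with capitals marking a CCAAT box and, near the end, a full ER stress response element, CCAAT and CCACG with 9 bases of any kind between them.
XBP1 upstream: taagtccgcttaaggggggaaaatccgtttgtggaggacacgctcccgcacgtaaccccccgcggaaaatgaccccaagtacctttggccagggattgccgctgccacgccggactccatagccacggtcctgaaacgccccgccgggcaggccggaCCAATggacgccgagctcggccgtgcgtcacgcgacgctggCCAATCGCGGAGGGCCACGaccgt
The same element occurs in the windows of 3 of 14 XBP1-linked genes of the unfolded protein response on a context list, shown with its fixed ends in capitals. HSPA5 and PDIA6 carry it on their own strand, chr9:125241391-125241409 and chr2:10812853-10812871, and CRELD2 on the opposite strand, chr22:49918554-49918572.
XBP1: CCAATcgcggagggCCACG
HSPA5: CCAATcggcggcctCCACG
PDIA6: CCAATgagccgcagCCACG
CRELD2: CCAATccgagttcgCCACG
On both strands of the 250 bases before each RefSeq start, 25 of 27305 genes with a window (0.0916%) held this element. It contains a CCAAT box, which alone was in 32.0% of 35116 windows and in 10 of the 26 windows of the genes here. Those 10 windows belonged to 5 of the 8 genes here that had a window (ESR1, ESR2, GATA3, PGR and XBP1). The palindromic oestrogen response element, GGTCA and TGACC with 3 bases of any kind between them, was in 0.0399% of windows and in no window of these 8 genes. The shorter motifs TGACGTGG of the unfolded protein response (0.612% of windows), AGATAA of GATA factors (9.17%) and TGTTTAC of forkhead factors (2.98%) had no match in these windows either. Such matches are descriptions of letters in a window and not of binding.

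XBP1 kept within 81.7 to 113 CPM over the 15 libraries. The empty-vector libraries had 103, 96.3 and 113 CPM. Levels were 88.3, 81.7 and 85.1 CPM with guide 1, 91.5, 98.9 and 87.9 CPM with guide 2, 92.2, 93.1 and 97.1 CPM with guides 1 and 2, and 90.5, 83.4 and 89.3 CPM in parental cells. Guide 1 and parental libraries lay wholly below the empty vector, while those of guide 2 and of both guides overlapped with it. XBP1 fell by 0.31 (log2 fold change) with guide 1 (SE 0.074, edgeR adjusted p = 0.0309), and by 0.22 in the mean of the lines (adjusted p = 0.0450). It was -0.18 with guide 2 (adjusted p = 0.197), -0.17 with both guides (adjusted p = 0.320) and -0.28 in parental cells (adjusted p = 0.0501). The guide 1 call was lost with the replicate block (adjusted p = 0.0606), with no filter on low counts (0.0876), and without empty-vector replicate 1 or 3 (0.0587 and 0.1274) or guide 1 replicate 1, 2 or 3 (0.0721, 0.1319 and 0.0601). The call for the mean of the lines held without empty-vector replicate 2 (0.0261), guide 1 replicate 1 (0.0491), guide 2 replicate 2 (0.0064) or parental replicate 2 (0.0422), and was lost without each of the other 11 (0.0529 to 0.2976), with the replicate block (0.0805), with no filter (0.1338) and with only the compared groups in the fit (0.0802). Counts per gene do not separate the spliced and unspliced forms of XBP1 RNA.

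FOXA1 (ENSG00000129514, chr14:37589984-37596059, minus strand), the pioneer factor that opens chromatin for ESR1, was highest in the empty vector as well. Its levels were 5.36, 4.09 and 7.82 CPM there and 3.42, 1.88 and 3.38 CPM in parental cells. They were 1.70, 1.84 and 2.50 CPM with guide 1, 2.15, 4.48 and 1.72 CPM with guide 2, and 2.80, 3.03 and 3.68 CPM with guides 1 and 2. Guide 2 replicate 2 was the one library outside the empty vector that overlapped with it. FOXA1 fell with guide 1, 2.89-fold (log2 fold change -1.53, SE 0.363, edgeR adjusted p = 0.0290), and in the mean of the lines, 2.24-fold (log2 fold change -1.16, adjusted p = 0.0231). It was -1.07 with guide 2 (adjusted p = 0.121), -0.88 with both guides (adjusted p = 0.278) and -1.03 in parental cells (adjusted p = 0.125). The guide 1 call was lost with the replicate block (adjusted p = 0.0583) and without empty-vector replicate 1 or 3 (0.0554 and 0.1398) or guide 1 replicate 1 or 2 (0.1175 and 0.1235). The call for the mean of the lines was lost with the block (0.0526) and without empty-vector replicate 1 or 3 (0.0629 and 0.2257), and without guide 2 replicate 2 the guide 2 value was -1.61 (0.0048).

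GATA3 (ENSG00000107485, chr10:8045378-8075203, plus strand), the factor that keeps luminal cells differentiated, had 32.1, 35.3 and 22.7 CPM with guide 1 and 24.7, 15.4 and 25.7 CPM with guide 2. It had 21.2, 18.6 and 21.4 CPM with both guides, 22.3, 24.3 and 19.8 CPM in the empty vector and 20.3, 27.0 and 22.2 CPM in parental cells. Replicates 1 and 2 of guide 1 were the highest of the series, but the third overlapped with the empty vector, and guide 2 replicate 2 was the lowest. The log2 fold change with guide 1 was 0.43 against the empty vector (95% interval 0.00 to 0.87, edgeR adjusted p = 0.234). For the mean of the lines it was 0.09 (95% interval -0.27 to 0.45, adjusted p = 0.821).

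Counted together, edgeR called 3 of the 7 tested genes with guide 1 (CA12, FOXA1 and XBP1), where 5.88% of 17457 genes were called. It called 1 with guide 2 (CA12, 3.94% of all genes) and 1 with both guides (CA12, 0.962% of all genes). For the mean of the lines it called 3, all lower, where 6.43% of all genes were called, 4.98% lower and 1.44% higher. In parental cells against the empty vector it called 0, where 4.37% of all genes were called, although 5 had an unadjusted p under 0.05 (19.8% of all genes) and DESeq2 called 3 (CA12, FOXA1 and XBP1, with 9.31% of all genes). Without guide 2 replicate 2, the library that stood farthest from its group, edgeR called 3 in guide 1, 3 in guide 2, 1 with both guides, 3 in parental cells and 3 in the mean of the lines. The shares of all genes called then rose as well, to 18.1%, 14.5%, 6.70%, 13.9% and 18.8%. Without empty-vector replicate 3 the counts were 0, 0, 0, 0 and 1, beside 1.39%, 0.948%, 0.173%, 0.875% and 1.60% of all genes. With the replicate block, guide 1 kept 1 (CA12) where 3.25% of all genes were called.

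Against parental cells edgeR called 0 of the 7 with guide 1, guide 2, both guides and the mean of the lines, where 0.149%, 0.0516%, 0.195% and 0.166% of all genes were called. At an unadjusted p under 0.05 the counts were 1, 1, 0 and 0, beside 19.9%, 7.37%, 9.98% and 12.4% of all genes. DESeq2 called 0 in each, beside 3.76%, 0.785%, 2.10% and 2.23% of all genes. Voom with sample quality weights called 3, 3, 3 and 4, but it also called 52.9%, 32.5%, 21.3% and 42.7% of all genes. Its weights for replicates 1, 2 and 3 were 0.254, 0.418 and 3.82 in parental cells and 3.35, 1.42 and 0.199 with guide 1. Guide 2 replicate 2 had a weight of 0.0518. Between the edited lines, edgeR called 0 for guide 1 against guide 2, 0 for guide 1 against both guides and 0 for guide 2 against both guides, where 0.0401%, 0.275% and 0.149% of all genes were called. At an unadjusted p under 0.05 these counts were 2, 1 and 1, beside 15.2%, 13.0% and 5.80% of all genes. DESeq2 called 0 in each (1.17%, 2.19% and 0.859% of all genes), and voom with weights called 2, 3 and 2 (20.2%, 46.5% and 15.2% of all genes). Without guide 2 replicate 2, edgeR called 1 for guide 1 against both guides, with 4.55% of all genes.

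**Figure D3:**
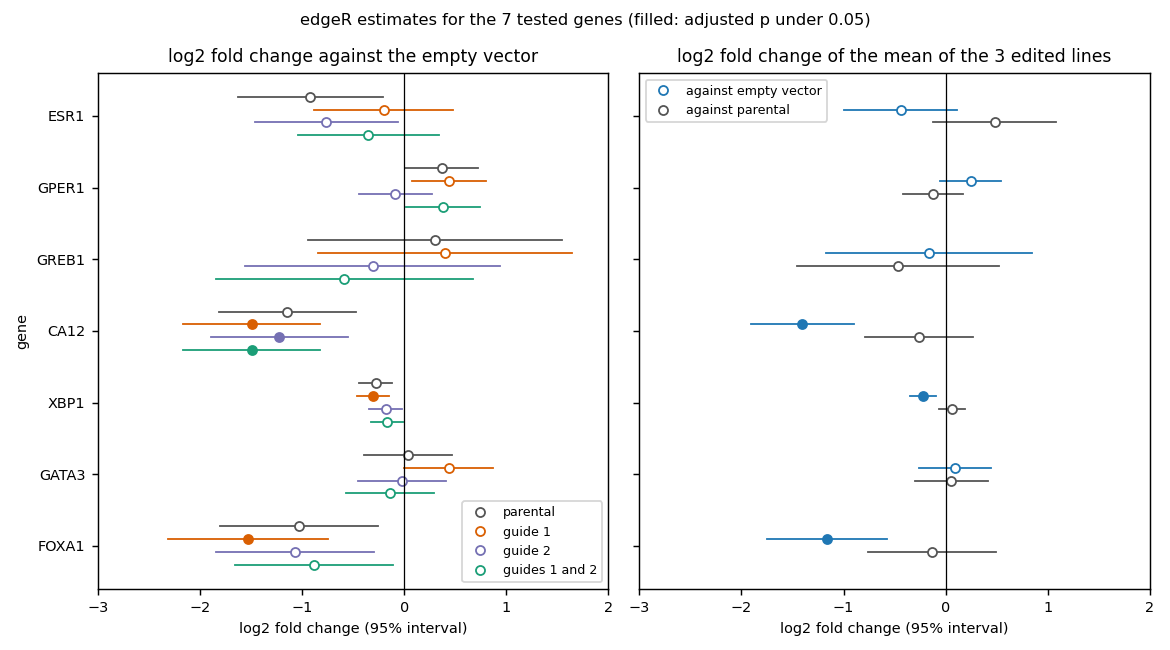
Log2 fold changes with 95% intervals from edgeR for the 7 tested genes, on the left for each group against the empty vector and on the right for the mean of the 3 edited lines against either control (filled points have an adjusted p under 0.05). CA12 is filled in all 3 edited lines on the left and at -1.41 on the right, and no point against parental cells is filled.

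The epithelial markers KRT14 and CDH1 differed between libraries of a group, in the direction of CA12, FOXA1 and XBP1 in some groups and not in others. KRT14 was 118, 129 and 309 CPM in the empty vector, 9.90, 9.32 and 6.44 CPM with guide 1, and 34.6, 31.0 and 26.0 CPM with both guides. The adhesion molecule CDH1 was 44.1, 46.8 and 127 CPM in the empty vector, 14.8 to 23.4 CPM with both guides, and 0.16 CPM or less with guide 1. With guide 2 it was 0.04, 91.4 and 0.04 CPM, and in parental cells 42.9, 1.79 and 37.8 CPM. Within guide 2, replicate 2 had the highest KRT14, CDH1, CA12, FOXA1 and XBP1 and the lowest GREB1 and GATA3. Within parental cells, replicate 2 had the lowest KRT14, CDH1, CA12, FOXA1 and XBP1 and the highest GREB1 and GATA3. Empty-vector replicate 3 had the highest KRT14, CDH1, CA12, FOXA1 and XBP1 of its group and the lowest GREB1 and GATA3. Within guide 1 and with both guides the order was another. FOXA1 was highest in replicate 3 of both groups, where KRT14 was lowest, and so was XBP1 with both guides. The luminal keratin KRT8 was lowest in guide 2 replicate 2 (70.2 CPM) and highest in parental replicate 2 (176 CPM), opposite to KRT14 within these groups. So was VIM, which is on the basal list with KRT14 (866 and 2289 CPM). CD24, on the luminal list, was 20.2, 22.1 and 17.3 CPM with guide 2 and 35.2, 104 and 171 CPM in parental cells. EPCAM, KRT5, KRT17 and TP63 followed KRT14, being highest of their group in guide 2 replicate 2 and lowest of their group in parental replicate 2. The summed level of the 18 basal markers was 9703 to 12816 CPM in the empty vector, 6246 to 7137 CPM with guide 1, 6809 to 15506 CPM with guide 2, 7438 to 7869 CPM with both guides and 7078 to 10822 CPM in parental cells. Of the 24 luminal markers 13 were above the floor in every library, ELF5 and ANKRD30A were at 0 in all, and the sum was 2591 to 3436 CPM over all groups. Most of that sum was KRT7, at 1905 to 2866 CPM. Over the 15 libraries Spearman's rank correlation with CDH1 was 0.914 for FOXA1, 0.775 for CA12 and 0.618 for XBP1. It was -0.711 for GATA3, -0.407 for GREB1 and -0.232 for GPER1. With KRT14 the values were 0.732, 0.636, 0.500, -0.664, -0.321 and -0.264 in the same order. They mix differences between groups with those within groups. The part of these markers in the results for CA12, FOXA1 and XBP1 was not tested.

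**Figure D4:**
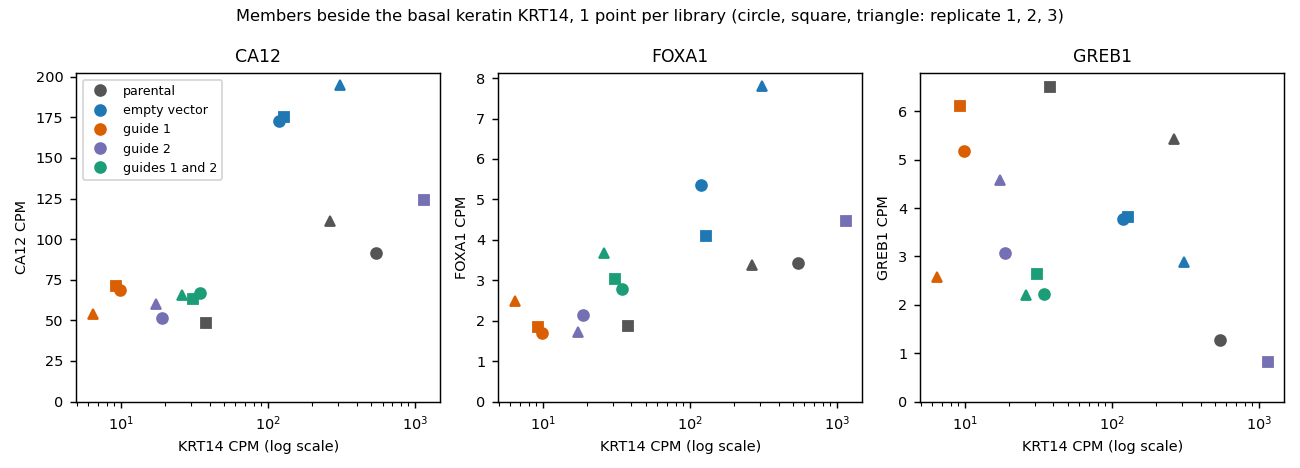
CPM of CA12, FOXA1 and GREB1 (linear axes) against CPM of the basal keratin KRT14 (log axis), with 1 point per library coloured by group and shaped by replicate. Guide 2 replicate 2, at 1147 CPM of KRT14, has the highest CA12 outside the empty vector (124 CPM) and the lowest GREB1 (0.816 CPM).

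Other listed oestrogen receptor targets were detected in part, and whether a receptor drove their expression was not tested. Of 28 other oestrogen receptor targets 21 were above the floor in every library, while TFF1, TFF3, CXCL12 and OLFM1, of which TFF1 is the classical oestrogen-induced gene, were above it in none. In the mean of the 3 lines against the empty vector, 22 were tested, of which 1 was called higher and 3 lower. Over all genes 1.44% were called higher and 4.98% lower. The median log2 fold change of the list was -0.15 against 0.02 over all genes. IRS1, an adaptor of the insulin receptors, rose (log2 fold change 0.80, edgeR adjusted p = 0.0171). The receptor IGF1R fell by 1.18 (adjusted p = 0.00342), the ubiquitin ligase SIAH2 by 0.48 (adjusted p = 0.0294) and the cadherin CELSR2 by 1.37 (adjusted p = 0.000343). CELSR2 was also lower in parental cells than in the empty vector (log2 fold change -1.12, adjusted p = 0.0122). The most abundant targets, the amino acid transporter SLC7A5, cyclin D1 (CCND1), FKBP4 and STC2, were not called, with log2 fold changes of -0.39, 0.41, 0.11 and 0.52. Against parental cells 0 of the 22 were called, beside 0.166% of all genes. Without guide 2 replicate 2 the counts against the empty vector were 5 higher and 7 lower, where the shares of all genes had also risen, to 5.93% higher and 12.9% lower. The call of SIAH2 was lost with the replicate block (adjusted p = 0.0633).

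The coregulators through which a receptor would act were abundant and even. All 18 were tested, and 1, the Mediator subunit MED1, was called higher in the mean of the lines against the empty vector (log2 fold change 0.21, edgeR adjusted p = 0.0343), with a list median of 0.05. MED1 was likewise higher in parental cells than in the empty vector (log2 fold change 0.35, adjusted p = 0.0138). The co-repressor NCOR1 was higher in parental cells too (log2 fold change 0.25, adjusted p = 0.0223). In the mean of the lines its log2 fold change was 0.10, that of the repressor of oestrogen receptor activity PHB2 0.18 and the chromatin remodeller ARID1A 0.03, none of them called. Over all genes 1.44% were called higher in the mean of the lines and 4.98% lower. With the replicate block or without some single libraries, parental replicate 2 among them, no coregulator was called. Without guide 2 replicate 2 there was 1 higher and 1 lower, beside 5.93% and 12.9% of all genes.

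Of 10 other nuclear and steroid-binding receptors 9 were tested and 1 was called, the vitamin D receptor VDR, which fell by 0.69 (edgeR adjusted p = 0.0374), and the list median was 0.14. In this comparison 1.44% of all genes were called higher and 4.98% lower. The VDR call was lost with the replicate block (edgeR adjusted p = 0.0748). Without guide 2 replicate 2 the list had 4 higher and 1 lower, beside 5.93% and 12.9% of all genes. NR3C1 had a log2 fold change of -0.02 (adjusted p = 0.911), PGRMC1 of 0.14 and NR2F2 of 0.24. Of 9 enzymes that make or break down oestrogens, all were tested and 1 was called, CYP1A1, which hydroxylates oestradiol and fell by 1.57 (adjusted p = 0.0107), with a list median of 0.12. HSD17B1, which makes oestradiol from oestrone, had a log2 fold change of -0.27 against the empty vector (adjusted p = 0.299) and was higher than in parental cells, by 1.03 (adjusted p = 0.0130), the single enzyme called in that comparison. Against parental cells 0.166% of all genes were called. HSD17B1 had 6.32 ± 0.202 CPM in parental cells and 15.2 ± 0.663 CPM in the empty vector (SD, n = 3 each).

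Of the 14 genes linked to XBP1 in the unfolded protein response, 3 were called lower and none higher in the mean of the lines against the empty vector. Over all genes 4.98% were called lower and 1.44% higher. The list median was -0.13. The chaperone HSPA5 fell by 0.23 (edgeR adjusted p = 0.0301), the degradation factor EDEM1 by 0.38 (adjusted p = 0.00665) and the co-chaperone DNAJB9 by 0.39 (adjusted p = 0.0357). PDIA6 and CRELD2, which share the promoter element with XBP1 and HSPA5, had log2 fold changes of -0.11 and -0.10 (adjusted p = 0.313 and 0.612). Parental cells also had less EDEM1 than the empty vector (log2 fold change -0.51, edgeR adjusted p = 0.00953). Against parental cells 0 of the 14 were called, beside 0.166% of all genes. With the replicate block 1 of the 14, EDEM1, was called, where 3.78% of all genes were lower. Without guide 2 replicate 2 there were 4, all lower, where 12.9% of all genes were lower.

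Of the 24 luminal markers 15 were tested and 2 were called lower in the mean of the lines against the empty vector, CD24 (log2 fold change -2.03, edgeR adjusted p = 0.00512) and TFAP2A (-0.26, adjusted p = 0.0417), with a list median of -0.28. In this comparison 4.98% of all genes were called lower. The luminal keratins KRT7, KRT18 and KRT8 had log2 fold changes of 0.04, -0.28 and -0.13 and were not called. Of the 18 basal markers 17 were tested and 2 were called lower, KRT17 (-2.76, adjusted p = 0.0499) and LAMB3 (-0.78, adjusted p = 0.00665), with a list median of -0.36. LAMB3, a chain of laminin 332, was also lower in parental cells than in the empty vector (log2 fold change -1.20, adjusted p = 0.00600). With the replicate block the calls of TFAP2A (adjusted p = 0.0836) and KRT17 (0.0816) were lost. Without guide 2 replicate 2 the counts were 2 higher and 9 lower for luminal and 1 higher and 9 lower for basal markers, beside the 5.93% and 12.9% of all genes given for that fit. Of 13 markers of stromal, endothelial, immune and fat cells 4 were above the floor in no library, CD3E and ADIPOQ were at 0 in all, and the sum over the list was 6.08 to 21.8 CPM. Of the 5 tested, COL1A1 was called lower (log2 fold change -1.72, adjusted p = 0.00182), at 15.3 ± 4.16 CPM in the empty vector and 4.45 to 5.06 CPM in the means of the lines. Against parental cells 1 of the 5, COL1A2, was called lower in the mean of the lines, beside 0.166% of all genes. It rested on 2 to 35 counts per library.

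Close relatives of the 9 genes were compared to see whether another family member was present. GREB1L had 21.2 to 58.4 CPM and lay above GREB1 per kilobase, at a median of 3.14 against 0.248 CPM. GATA2 and GATA6 had medians of 0.995 and 0.929 CPM per kilobase, below GATA3 at 6.49. FOXA2 had 0 to 0.333 CPM, and among the 4 relatives tested it was the one called in the mean of the lines against the empty vector (log2 fold change -2.68, edgeR adjusted p = 0.0209), resting on 0 to 19 counts per library. In this comparison 4.98% of all genes were called lower. Without guide 2 replicate 2 these relatives had 1 higher and 2 lower, beside 5.93% and 12.9% of all genes.

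Over all the context lists, 16 genes were called in the mean of the lines against the empty vector, where 6.43% of all genes were called. With the replicate block 9 of them were still called, where 0.854% of all genes were called higher and 3.78% lower. Without empty-vector replicate 3, where 1.60% of all genes were called, there were 3 still called, CELSR2, IGF1R and COL1A1. Without guide 2 replicate 2, where 18.8% of all genes were called, all 16 were still called. Without parental replicate 2, where 1.10% of all genes were higher and 5.03% lower, 15 were, MED1 being lost.

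The genes whose log2 CPM followed each of these most closely over the 15 libraries are given as a description, with Pearson's r. CA12 was followed by the cytokine IL1B (r = 0.958) and by CSTA and KLF13 (both 0.947), FOXA1 by BAK1 (0.968), C3orf52 (0.967) and IFFO2 (0.965), and XBP1 by CDC42SE1 (0.950), CMIP (0.943) and TRIM26 (0.931). GATA3 was followed by XPC (0.975), DYRK1B (0.972) and MAST3 (0.962), and GREB1 by PCDHB14 (0.966), PTPRS (0.958) and GPRC5C (0.957). GPER1 had weaker company, UNG (0.883), DROSHA (0.789) and HSPA2 (0.756). These values share libraries, depth and the library differences described for KRT14.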

How the data were processed

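RNA from 15 MCF-10A libraries was purified on RNeasy columns and made into libraries with a KAPA mRNA HyperPrep kit, per the labels. The submitters' processing notes name GRCh38, Trim Galore 0.6.0 and STAR 2.7.8a, and the counting program, annotation and strand setting are not given in the sources used here. The authors deposited whole-number read counts per gene, and CPM, which differ from values recomputed here from those counts by at most 4.91e-11 and are the unit of every level here. Exon lengths and positions come from GENCODE release 29.

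Counts were tested with edgeR 4.0.16 in R 4.3.3. After filterByExpr (minimum count 10) 17457 genes were scaled by trimmed means (TMM) and fitted by quasi-likelihood in 1 group-means model over all 15 libraries (10 residual degrees of freedom), with two-sided tests, Benjamini-Hochberg adjustment over all tested genes and a threshold of 0.05. The comparisons were each edited line, their mean and parental cells against the empty vector, lines against parental cells, and lines against each other. The labels call the replicates biological but do not say whether cultures were separate, so p-values measure the spread between these samples. The members and the context lists were chosen with earlier results of these data known. Named are NF1, the 9 genes, up to 4 most abundant genes per list with those called in the mean of the lines, and the 3 genes closest to each member with at least 1 CPM by correlation of log2 CPM (prior count 2). Other genes are named to show absence, a shared promoter element, cell identity or the marker differences between libraries, and were picked after their values were seen. Some genes of the context lists enter the counts but are not reported here by name.

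Replicate numbers come from the labels. Same-numbered guide 1 and empty-vector libraries deviated together (r 0.136 to 0.280 in the 3 pairs, across genes), so blocked values stand beside the results whose call they change and beside CA12 with guide 1, while the other pairs of groups did not meet this (mean over 30 pairs -0.0497). Alternatives were RLE scaling, no filter, a replicate block, DESeq2 1.42.0, only the compared groups in the fit, voom with sample quality weights in limma 3.58.1, a floor of 10 counts, and each library left out in turn. On simulated counts for guide 1 against the empty vector with 200 genes changed 2-fold among 17169 tested genes, edgeR recovered 54.5% of them. Of its 114 calls 109 were changed genes, and it called 0 genes in a comparison without change. The simulated counts varied independently for each gene, with no library shifted in many genes like guide 2 replicate 2. They cannot show the error with such a library. Numerical work used Python 3.11.15 with numpy 2.4.6 and pandas 2.3.3, and matplotlib 3.10.9.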

Additional observations from a re-analysis of the deposited data

Results flagged for a closer look

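The size of the NF1 decrease differed between edited lines by edgeR's test of the difference in log2 fold change. The decrease was smaller with guide 1 (log2 fold change -1.40 against the empty vector) than with guide 2 (-2.09) or both guides (-2.16). NF1 RNA with guide 1 was higher than with guide 2 by 0.69 (SE 0.0880, edgeR adjusted p = 0.0121). It was higher than with both guides by 0.76 (SE 0.0882, adjusted p = 0.00411), and every guide 1 library lay above every library of the other lines. None of the 7 tested oestrogen receptor and luminal genes differed between lines at the threshold.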

How the results depend on the processing

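Of 882 values of single genes under the alternatives, 784 kept their direction and side of the threshold, 57 lost and 30 gained a call, and 11 changed sign. Counts of called genes among the 7 tested changed as follows. With no filter, parental against empty vector gave 1. With the replicate block, guide 1, guide 2, both guides and the mean of the lines against the empty vector gave 1, 0, 0 and 1. Of the 17457 tested genes, 567, 375, 69 and 809 were called there, and the block changed no other member count. DESeq2 gave 2 for guide 2 and 3 for parental cells, where for parental cells 9.31% of all genes were called. With only the compared groups in the fit, guide 2, both guides and parental cells gave 0, 3 and 1. Voom with weights gave 3, 3 and 4 for these, 3, 3, 3 and 4 for guide 1, guide 2, both guides and the mean against parental cells, and 2, 3 and 2 for guide 1 against guide 2, guide 1 against both and guide 2 against both. With 1 library left out, the counts against the empty vector were 0 to 3 for guide 1, 0 to 3 for guide 2, 0 to 1 for both guides, 0 to 3 for parental cells and 1 to 3 for the mean, and 0 to 1 for guide 1 against both guides. Calls over all genes moved in the same fits, so these counts cannot be read alone. The share of all genes is not given here for no filter or for DESeq2 with guide 2. Nor is it given for the fits with only the compared groups, or for voom with guide 2, both guides and parental cells against the empty vector. No result about these genes is drawn from those counts. With all libraries kept, the alternatives called 567 to 7424 genes for guide 1 and 13 to 5804 for guide 2 against the empty vector. They called 69 to 4666 for both guides, 400 to 6343 for parental cells and 809 to 6426 for the mean. The causes were not tested. With a floor of 10 counts ESR2 was above it in 1 library, not 8.

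Signs changed for uncalled values. Some were near 0, but GREB1 in the full fit was -0.31 with guide 2 and 0.30 in parental cells against the empty vector. Voom gave GATA3 0.13 with guide 2 and -0.06 (-0.0562) in parental cells, and GREB1 0.00 with guide 2 (0.002079), against the empty vector. With 1 library left out, values against the empty vector were -0.16 to 0.16 for GATA3 and -0.86 to 0.10 for GREB1 with guide 2, and -0.10 to 0.13 and -0.10 to 0.75 in parental cells. Against parental cells the mean of the lines was -0.03 (-0.0333) to 0.18 for GATA3 and -0.37 to 0.01 (0.00991) for FOXA1.

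Over all genes the calls also moved. Leaving out 1 library gave 215 to 3236 for guide 1, 170 to 2581 for guide 2, 21 to 1196 for both guides, 145 to 2484 for parental cells and 287 to 3363 for the mean against the empty vector, where the full fit had 1026, 687, 168, 762 and 1122. Voom with weights gave 7424 for guide 1. Depth limits ESR1, ESR2 and PGR, as their counts show.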
